A study of Homo sapiens with 2 samples.

Results

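The nuclear-encoded genes of the mitochondrial respiratory chain were examined for IGF2BP3 binding in OE-19 cells, a cultured epithelial line of esophagogastric junction adenocarcinoma (AEG). Members were the GENCODE protein-coding genes on nuclear chromosomes whose symbol begins with NDUF, UQCR, COX or ATP5, together with SDHA, SDHB, SDHC, SDHD and CYC1, which gave 108 of 20033 protein-coding genes. The name rule also admits assembly factors (NDUFAF genes and several COX genes), 9 paralogs and 2 readthrough genes that carry exons of a member and of its neighbor. IGF2BP3 is an RNA-binding protein described as a reader of N6-methyladenosine (m6A), and its binding sites were mapped by LACE-seq, in which RNA crosslinked to the protein by UV light is immunoprecipitated and the ends of its cDNA are linearly amplified for sequencing. The data are peak lists from 2 replicates of the same untreated line, with 21142 and 20799 peaks on hg38, of which 93 and 82 overlapped an exon of a member.

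The respiratory chain passes electrons from NADH through complex I (NADH dehydrogenase), or from succinate through complex II (succinate dehydrogenase), to complex III (the cytochrome bc1 complex) and then complex IV (cytochrome c oxidase), which reduces oxygen. The proton gradient built by complexes I, III and IV drives complex V, the ATP synthase. A few subunits are encoded in mitochondrial DNA, but most are nuclear-encoded, translated in the cytosol and imported, and assembly factors such as the enzymes of heme A synthesis act before the complexes work.

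An exonic peak, meaning a peak sharing at least 1 bp with an exon of any annotated transcript, was found in 54 of the 108 genes in replicate 1 (50%, 95% Wilson interval 40.7 to 59.3) and in 53 in replicate 2 (49.1%, 39.8 to 58.4). Over all protein-coding genes, the share with an exonic peak was 37.3% in replicate 1 and 39.0% in replicate 2. A peak in both lists was present for 39 members (36.1%), beside 31.6% of all protein-coding genes. A shared site, which here is a pair of peaks overlapping between the lists, was present for 32 members (29.6%, 21.8 to 38.8), close to the 28.0% of all protein-coding genes. The remaining members had a peak in replicate 1 only (15 genes), in replicate 2 only (14 genes) or in neither list (40 genes). With a single group and no control library, these shares are descriptions and no test was made. The lists carry no strand and no RNA level, so strong binding and abundant mRNA cannot be told apart.

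Members have short mRNAs, with a median mature length of 830.5 nt beside 2885 nt for all protein-coding genes. Among genes below 1000 nt, a peak in replicate 1 was present for 41.0% of 61 members and for 21.4% of all such genes. The corresponding shares in replicate 2 were 37.7% and 22.2%. For shared sites in this length class the shares were 21.3% and 15.7%. Between 2000 and 4000 nt, 66.7% of 15 members had a peak in replicate 1 and 80.0% in replicate 2, beside 38.4% and 40.6% of all genes of that length. Shared sites were present for 53.3% of these members and 28.5% of these genes. Between 1000 and 2000 nt, 8 of 20 members had a shared site, beside 19.6% of all genes. Of the 12 members of 4000 nt or more, 3 had a shared site, beside 36.7% of all genes, and 9 had a peak in replicate 1, beside 48.2%.

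Related gene groups bracketed these values. Of 85 cytosolic ribosomal protein genes, whose median mature length of 848 nt is close to that of the members, 71.8% had a peak in replicate 1, 72.9% in replicate 2 and 63.5% a shared site. Of 78 mitochondrial ribosomal protein genes, 48.7% and 50% had a peak and 35.9% a shared site. Enzymes of the TCA cycle, which supplies the chain with NADH and succinate, had peaks in 12 and 10 of 13 genes. Other respiratory chain assembly factors, not taken up by the name rule, had peaks in 10 and 13 of 27 genes, with a shared site in 7.

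**Figure D1:**
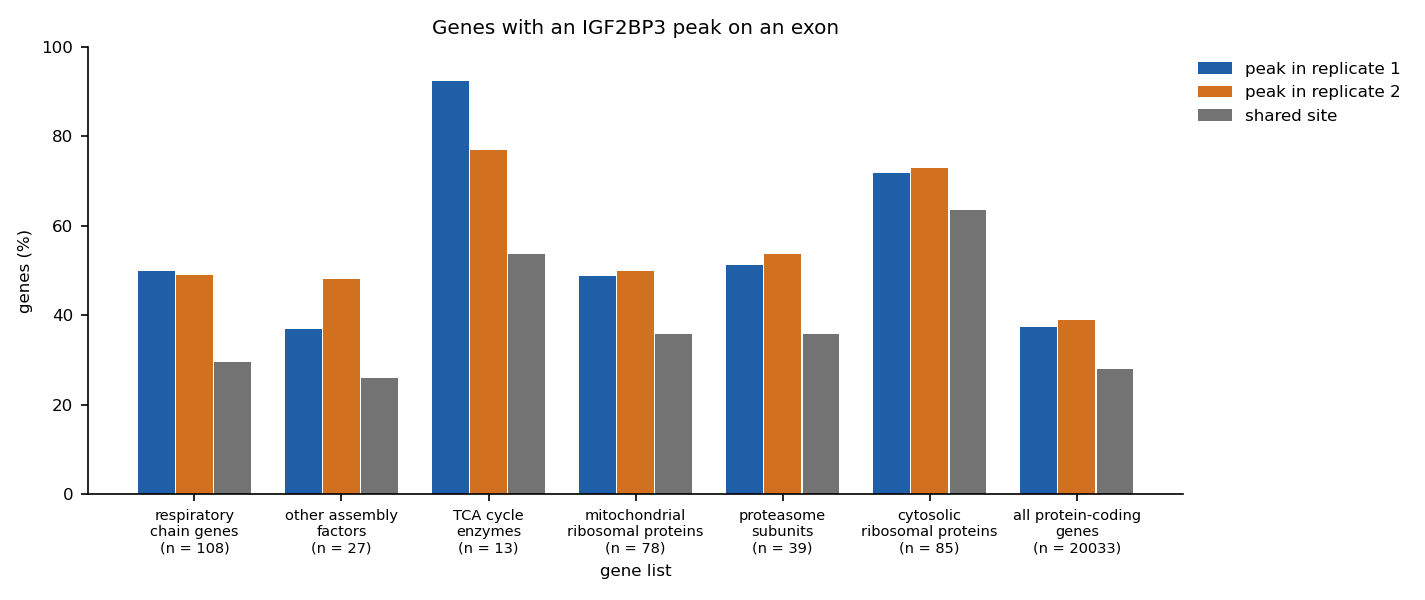
Share of genes with an exonic IGF2BP3 peak in replicate 1, in replicate 2 and with a shared site (vertical axis, % of genes), for the nuclear-encoded respiratory chain genes, 5 related gene lists and all protein-coding genes; n is the number of genes. Respiratory chain genes stood at 50%, 49.1% and 29.6%, below the cytosolic ribosomal protein genes in all 3 measures.

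The strength of a peak is given as fold enrichment. This is the ratio of reads stacked at the summit (the pileup) to the local background estimated by the peak caller, with 1 added to each. The fold is therefore smaller than the plain ratio, most so where the background is low. Member peaks had a median fold of 7.57 in replicate 1 and 7.64 in replicate 2, beside 6.82 and 7.11 over all peaks on protein-coding exons. Their pileups were low, with a median of 20 reads in each replicate and a range of 7 to 68 and 7 to 84, so single peaks rest on few reads. The medians over all peaks on protein-coding exons were also low, at 24 and 23 reads. Members with a peak carried on average 1.741 and 1.566 peaks per gene, beside 2.5 and 2.43 over all protein-coding genes with a peak. Members are shorter, as given above, and this comparison was not split by length. The overlap between replicates was partial. Of the 93 member peaks of replicate 1, 48 overlapped a peak of the other list (51.6%, 41.6 to 61.5), beside 61.9% over all protein-coding exons. Of the 82 member peaks of replicate 2, 52 did so (63.4%, 52.6 to 73.0), beside 61.5%.

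Leaving out the readthrough genes, 49 overlapping pairs fell on 31 genes. The median distance between their summits was 38 bp, and in 31 pairs it was at most 50 bp. In 31 pairs both peaks lay above the median fold of their list, and in 6 pairs both lay in the top 10%. Spearman's rho between the fold of the paired peaks was 0.538, as a description across pairs that share genes and libraries. The same values over all overlapping pairs are not given here, so none of them can be called particular to the members. The 6 strongest pairs belonged to NDUFA4 (2 pairs), COX10, NDUFC2, UQCRHL and ATP5MJ, which are described with their complexes.

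**Figure D2:**
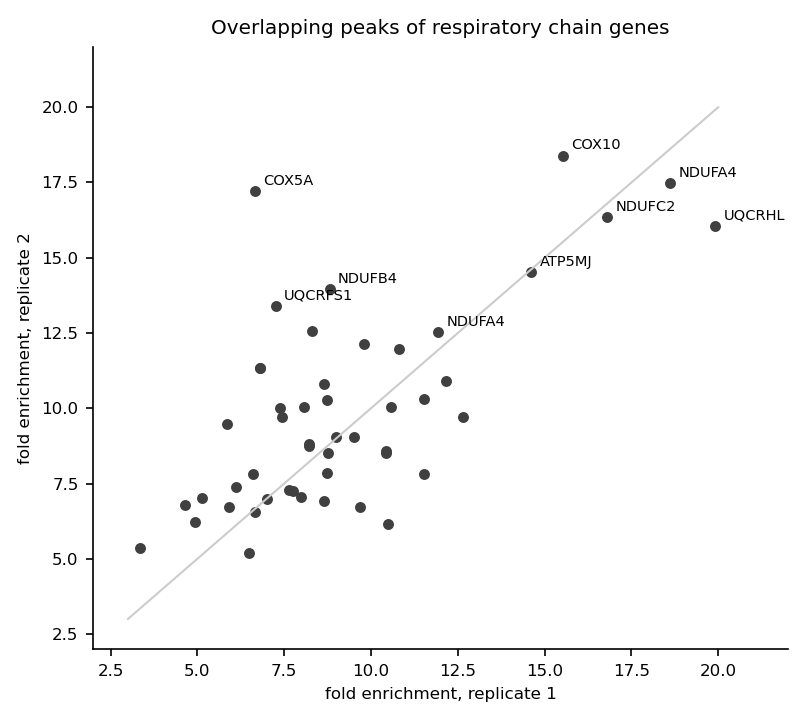
Fold enrichment of the 49 overlapping peak pairs in replicate 1 (horizontal axis) and replicate 2 (vertical axis), 1 point per pair, with the line of equal values. NDUFA4, COX10, NDUFC2, UQCRHL and ATP5MJ lie at the upper right, and COX5A is the point farthest from the line, with 6.66 in replicate 1 and 17.2 in replicate 2.

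Complex I consists of a catalytic core and accessory subunits that surround it. Of 30 accessory subunit genes, 15 had a peak in replicate 1, 14 in replicate 2 and 7 a shared site. Of the 7 nuclear-encoded core subunit genes, whose products bind the flavin and the iron-sulfur clusters, 2 had a peak in each replicate and none had a shared site. The strongest pair of the complex lay on exon 1 of NDUFC2, an accessory subunit of the membrane arm, with a fold of 16.8 in replicate 1 and 16.3 in replicate 2. The pileups there, at chr11:78079662-78080124 in replicate 1 and chr11:78079655-78080018 in replicate 2, were 34 and 36 reads, and both peaks covered the start codon. The replicate 1 summit lay outside the gene and the replicate 2 summit in the 5′ UTR. The peaks also lie on the readthrough gene NDUFC2-KCTD14, which uses the same exon.

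NDUFA8, an accessory subunit on the intermembrane space side of complex I, had 3 peaks in each list, and all 3 were shared. Its last exon had a fold of 12.2 and 10.9, with summits at the same base. Exon 2 had 7.98 and 7.04, and exon 1 had 6.81 and 11.3. At exon 1 the replicate 1 summit lay outside the gene. Together the peaks covered 56.1% and 52.6% of the 804 nt transcript. NDUFC1, also an accessory subunit, had 3 shared pairs, and the strongest, with 9.81 and 12.1, lay in a 5′ UTR exon that overlaps the divergent gene NAA15. NDUFB4 had a single pair at its start codon, with 8.81 in replicate 1 and 14.0 in replicate 2. The other shared sites of the complex were on NDUFB9 (8.29 and 12.6, and 5.12 and 7.02), NDUFA10 (9.68 and 6.72) and NDUFA6. The second NDUFB9 pair lay on no exon of the transcript used, and both of its peaks also lie on MTSS1. The replicate 2 summit of the first NDUFB9 pair and both summits of the second lay in an exon of a non-coding transcript.

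NDUFS1, the largest core subunit, showed the clearest disagreement between lists. Replicate 1 had 5 peaks, of which 2 lay in the 3′ UTR with folds of 3.75 and 3.67, and 3 lay at exons 6 to 7, 12 and 15, the strongest with 10.1. Replicate 2 had 1 peak, in another stretch of the 3′ UTR, with a fold of 5.27. The core subunit NDUFS7 had a peak in replicate 1 only (8.18) and NDUFV2 in replicate 2 only (6.18). No exonic peak was present for the core subunits NDUFS3, NDUFS8 and NDUFV1 or for the accessory subunits NDUFA3, NDUFAB1, NDUFB2, NDUFB5, NDUFB6, NDUFB8, NDUFB10, NDUFS4 and NDUFS6. The flavoprotein-associated subunit NDUFV3 had peaks in both lists, one in the 3′ UTR in replicate 1 (11.5) and one at an upstream exon that overlaps WDR4 in replicate 2 (7.97).

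Complex II is built from 4 nuclear-encoded subunits, and the shared sites lay on genes of its catalytic part. SDHA, the flavoprotein that oxidizes succinate, had a shared pair at exon 13 of 15 with a fold of 10.4 in replicate 1 and 8.50 in replicate 2. Each list held a second SDHA peak, at exon 6 in replicate 1 (7.90) and at exon 5 in replicate 2 (7.56). SDHA has several pseudogene copies, and the 31 bases around these 4 summits each occurred 2 to 4 times in the genome, so the origin of these reads is uncertain. The 4 SDHA peaks also lie on an exon of another annotated gene. SDHB, the iron-sulfur subunit, had a shared pair at exon 7 of 8 with 6.67 and 6.54, and a further peak at exon 4 in replicate 1 (8.0). Of the membrane anchors, SDHC had 1 weak peak in replicate 1 (5.96, 7 reads) and SDHD had none.

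In complex III, 7 of 9 genes had a peak in replicate 1, 4 in replicate 2 and 4 a shared site. UQCRC2, a core subunit, had shared pairs at the last exon (11.5 and 7.80) and at exon 10 (10.5 and 6.15). UQCRFS1, the Rieske iron-sulfur protein, had a pair at its start codon with 7.26 in replicate 1 and 13.4 in replicate 2, and a second pair in the coding part of exon 2 with 7.74 and 7.26. UQCRQ had a pair over its start codon (8.22 and 8.74) that also overlaps the divergent gene GDF9, and UQCR11 had a pair at its last exon (6.60 and 7.83). CYC1, cytochrome c1, had 2 peaks in replicate 1 (5.44 and 4.46) and none in replicate 2. UQCRC1 and UQCRH had no peak.

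UQCRHL was the exception among paralogs and was singled out after its values were seen. It is an intronless copy of UQCRH, the hinge protein of complex III, and its peak had the highest fold of all member peaks in replicate 1 (19.9, 65 reads) and a fold of 16.0 (41 reads) in replicate 2. The UQCRHL transcript of 276 bases matched UQCRH at 272 of them (98.6%). UQCRH itself had no exonic peak in either list, and the 31 bases at both UQCRHL summits occurred once in the genome. That count does not cover spliced mRNA, so it cannot tell reads of UQCRHL from reads of spliced UQCRH mRNA. Both summits lay in a 5′ UTR of UQCRHL, outside the 276 bases compared. Of the other paralogs, COX6B2 had 1 peak in replicate 2 (5.38). NDUFA4L2, COX4I2, COX6A2, COX7A1, COX7B2, COX8C and ATP5MGL, several of which are used in muscle, lung or testis, had none.

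Complex IV contained the pair with the highest fold averaged over the replicates. NDUFA4, named as a complex I subunit but known as a subunit of cytochrome c oxidase, had 3 peaks in each list and all were shared. The last-exon peak had a fold of 18.6 (52 reads) in replicate 1 and 17.5 (35 reads) in replicate 2, the exon 1 peak 11.9 and 12.5, and the exon 2 peak 10.4 and 8.59. In the last-exon pair, at chr7:10933568-10933935 in replicate 1 and chr7:10933569-10933933 in replicate 2, only 125 of 368 and 124 of 365 bases were exonic, and both summits lay in the intron just before the exon. Both summits of the exon 1 pair lay outside the gene, and both of the exon 2 pair in an exon of a non-coding transcript. COX8A, a small membrane subunit, had a pair at the last of its 2 exons with 10.6 and 10.0. COX6B1 had a pair at its last exon with 8.66 and 10.8, again with intronic summits. COX7A2L, which links complexes III and IV into supercomplexes, had a pair at the last exon (9.0 and 9.05) and one at exon 1 (8.08 and 10.0).

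COX5A had the least even pair of all, with 6.66 (8 reads) in replicate 1 and 17.2 (41 reads) in replicate 2 over the same start codon, and was noted after its values were seen. Both COX5A summits lay outside the gene, and the peaks held only 71 and 140 exonic bases. COX6A1 and COX7C had a peak in each list but at different exons. For COX6A1 the peak lay at exon 3 in replicate 1 (8.13) and at exons 1 to 2 in replicate 2 (11.8). For COX7C it lay at exon 2 (9.38) and at exon 1 (6.67). COX5B, COX7A2 and COX7B had no peak.

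In complex V, 11 of 18 genes had a peak in replicate 1, 10 in replicate 2 and 7 a shared site. The pair of highest fold lay in the last exon of ATP5MJ, a small membrane subunit, with 14.6 (56 reads) in replicate 1 and 14.5 (37 reads) in replicate 2 and summits 1 bp apart in the 3′ UTR. The peaks span chr14:103912340-103912911 and chr14:103912351-103912960. With a second pair at exon 1 (6.81 and 11.3), peaks covered 67.3% and 65.7% of its 615 nt transcript. ATP5MC2, which encodes the proton-carrying c subunit, had pairs at the last exon (10.8 and 12) and at exon 4 (7.02 and 6.99). ATP5MF had a last-exon pair with 11.5 (68 reads) and 10.3 (45 reads), and ATP5F1D, a subunit of the central stalk, a pair at exon 2 with 9.51 and 9.03. Both ATP5F1D summits lay in an exon of a non-coding transcript. The remaining shared sites outside the catalytic head were on ATP5MC3 (5.86 and 9.46), another c subunit gene, and on ATP5PF (8.77 and 8.50). The ATP5PF peaks shared only 23 bp, with summits 343 bp apart, and lay on no exon of the transcript used, and both also lie on an exon of the neighbor GABPA.

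The catalytic head of the ATP synthase is formed by its alpha and beta subunits. ATP5F1B, the beta subunit, had 4 peaks in replicate 1 and 3 in replicate 2, which formed 3 pairs with pileups of 38 to 63 reads and folds of 5.19 to 7.63. All 7 summits lay in introns next to an exon, and the pair at exons 2 to 3 also covers the small nucleolar RNA gene SNORD59A. ATP5F1A, the alpha subunit, had 2 coding-region peaks in replicate 1 (5.96 and 6.18). In replicate 2 it had a coding-region peak (3.78) and a peak on exon 1 with its summit in the 5′ UTR (9.32), and no peak overlapped one of the other list. The peripheral stalk gene ATP5PB also had peaks in both lists without overlap. ATP5F1E, ATP5IF1, ATP5ME, ATP5MG, ATP5PD and ATP5PO had none.

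**Figure D3:**
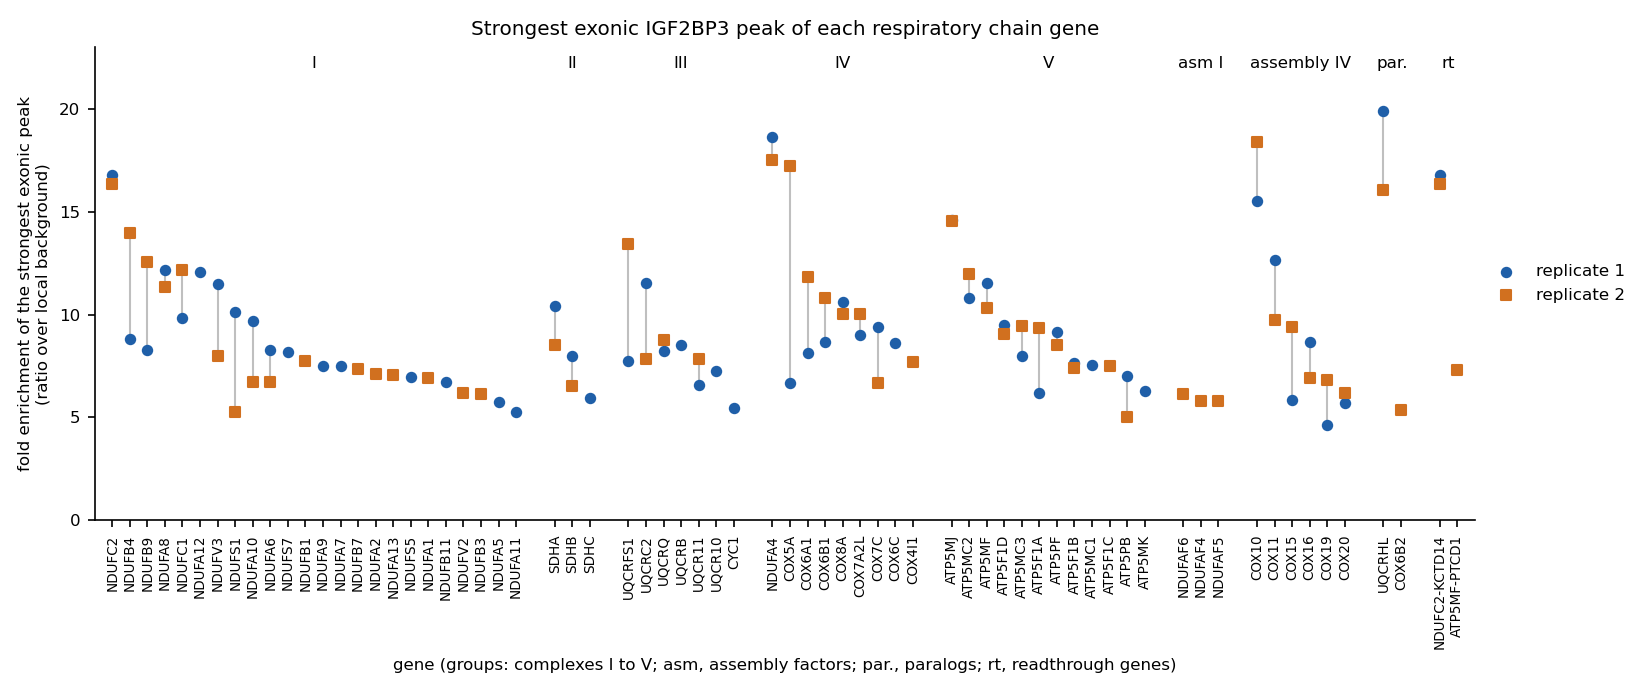
Fold enrichment of the strongest exonic peak (vertical axis, ratio over local background) for the 68 member genes with a peak, grouped by complex and, within a group, ordered by the higher value; circles are replicate 1 and squares replicate 2, joined where both lists have a peak. NDUFA4, COX10, NDUFC2 with the readthrough gene that shares its peak, UQCRHL and ATP5MJ exceeded 14 in both replicates.

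Assembly factors are counted by complex, and a difference between these few genes was not tested. Their median mature length was 2898 nt for complex IV and 1652 nt for complex I. Over all protein-coding genes, 37.3% and 39.0% had a peak and 28.0% a shared site. Of 9 complex IV assembly factors, 6 had a peak in each replicate, the same 6 genes, and 5 had a shared site. Of 8 complex I assembly factors, none had a peak in replicate 1 and 3 had a weak one in replicate 2, namely NDUFAF4, NDUFAF5 and NDUFAF6, each with 7 reads. NDUFAF1, NDUFAF2, NDUFAF3, NDUFAF7, NDUFAF8, COX14, COX17 and COX18 had none. COX10, the farnesyltransferase of heme A synthesis, had the most peaks of any member over both lists together, 4 in replicate 1 and 5 in replicate 2. Its exon 1 pair, at chr17:14069278-14069649 and chr17:14069275-14069721, had a fold of 15.5 (35 reads) and 18.4 (52 reads) and also overlaps the divergent transcript COX10-DT. Exon 6 had 7.43 and 9.72, and the last exon held 1 long peak in replicate 1 (8.73, 943 bp) and 3 peaks in replicate 2 (7.85, 10.3 and 4.57). Peaks covered 50.7% and 59.6% of its 2898 nt transcript.

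The other heme A enzyme, COX15, had a shared pair in the 3′ UTR with 4.92 and 6.21. COX11, which delivers copper to complex IV, had a pair over its start codon (12.7 and 9.72) that overlaps the divergent gene STXBP4. COX19, a further copper-related factor, had 2 pairs in its long 3′ UTR with folds of 4.63 and 6.80 and of 3.36 and 5.34. The COX16 pair (8.66 and 6.93) lay at an upstream exon shared with SYNJ2BP and its readthrough, with only 63 and 39 exonic bases. COX20 had peaks in both lists that did not overlap, in the 3′ UTR in replicate 1 (5.72) and at exon 1 in replicate 2 (6.18).

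**Figure D4:**
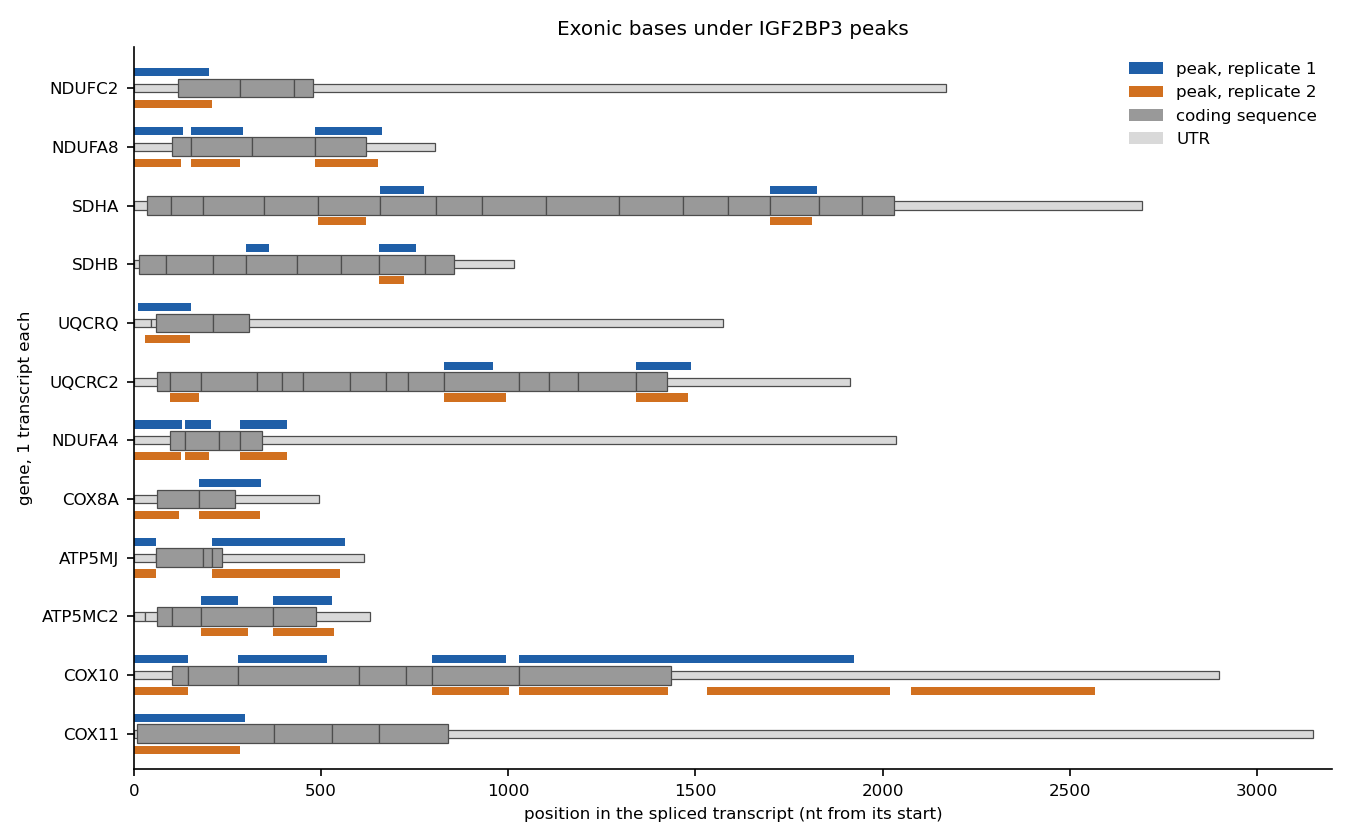
Exonic bases under peaks along 1 spliced transcript each (horizontal axis, nt from the transcript start) for 12 named genes; bars above a transcript are replicate 1 and bars below it replicate 2, dark boxes are coding sequence, light boxes UTR, and vertical lines exon borders. In NDUFA8, NDUFA4 and ATP5MJ the bars of the replicates coincide, while intronic parts of peaks are not drawn.

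Member peaks were less often centered in coding sequence than peaks over all genes. The summit lay in coding sequence in 22 of 93 peaks in replicate 1 (23.7%, 16.2 to 33.2) and 17 of 82 in replicate 2 (20.7%, 13.4 to 30.7), beside 35.1% and 35.2% over all protein-coding exons. Summits in the 3′ UTR made up 16.1% and 13.4%, beside 26.5% and 21.0%. Summits in the 5′ UTR made up 15.1% and 19.5%, beside 7.92% and 14.0%. Intronic summits, in peaks that still reach an exon, made up 31.2% and 20.7%, beside 24.6% and 22.3%. Summits outside the gene, again in peaks that reach an exon, made up 5.38% and 14.6%, beside 1.76% and 3.43%.

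Because members are short, the same shares were computed for genes below 2000 nt. There the coding share was 19.3% and 12.8% for members beside 40.1% and 37.8% for all short genes, and the intronic share was 40.4% and 27.7% beside 20.3% and 17.4%. The share of summits outside the gene was 5.26% and 12.8% beside 3.24% and 6.34%. For exons of non-coding transcripts the share was 8.77% and 14.9% beside 7.58% and 7.7%. A peak covered a start codon in 22.6% and 31.7% of member peaks, beside 12.6% and 17.4% over all genes. In short genes this gap narrowed to 22.8% beside 22.5% in replicate 1 and to 36.2% beside 27.3% in replicate 2. Without peaks that also lie on an exon of another gene, the number of member peaks over a start codon fell from a mean of 23.5 to 12 per list. Stop codons were covered by 20.4% and 17.1% of member peaks, beside 19.0% and 17.3%. In short genes these shares were 24.6% and 21.3% for members, beside 35.4% and 31.3%. Of the 49 pairs, 12 covered the start codon and 10 the stop codon in both replicates, while 13 touched the first exon and 19 the last exon of the transcript used.

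**Figure D5:**
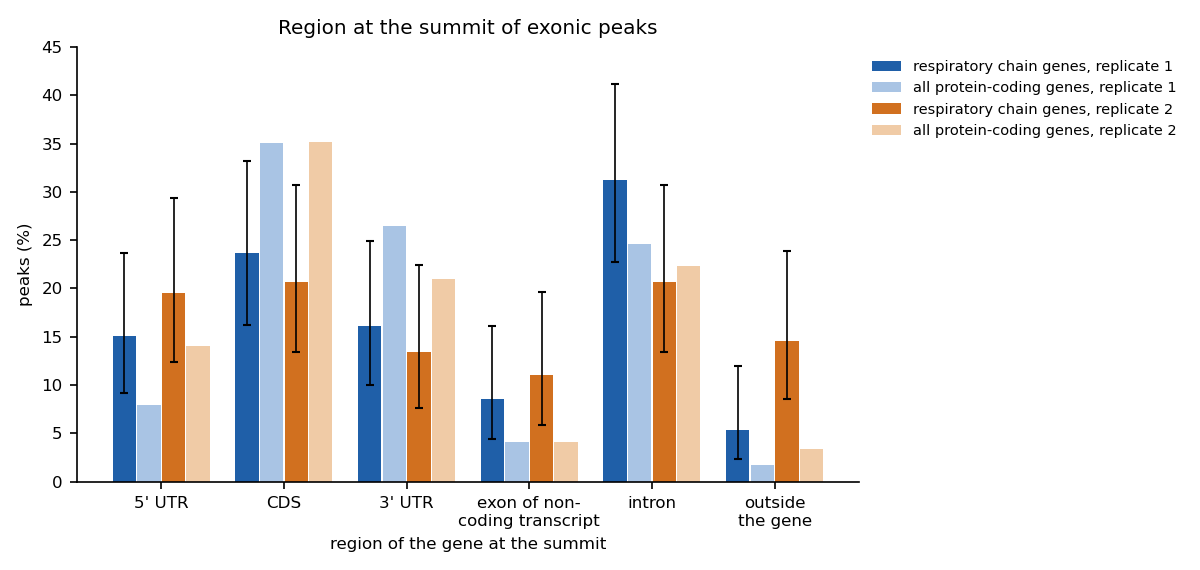
Region of the gene at the summit of exonic peaks (vertical axis, % of peaks) for members, with 95% Wilson intervals as error bars, and for all protein-coding genes, in each replicate. Coding-sequence summits made up 23.7% and 20.7% of member peaks beside 35.1% and 35.2% of all.

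Since every peak counted here reaches an exon, an intronic summit lies near one by selection. A summit within 150 nt upstream of an exon was found for 28 of the 29 intronic summits of replicate 1 and for 15 of the 17 of replicate 2, and one within 150 nt downstream for 4 in each replicate, some summits being near an exon on both sides. Over all genes the upstream position was found for 4048 of 4346 and for 3704 of 3975. Windows of 101 nt centered on the replicate 1 summit show this position for the last exons of NDUFA4, UQCRC2 and ATP5F1B, with the last exon of NDUFA8 beside them, and are printed on the gene strand of hg38, with coding bases of the exon in capitals and intron in lower case.
NDUFA4, chr7:10933676-10933776, minus strand: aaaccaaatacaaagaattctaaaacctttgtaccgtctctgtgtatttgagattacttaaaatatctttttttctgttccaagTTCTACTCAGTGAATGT
UQCRC2, chr16:21983023-21983123, plus strand: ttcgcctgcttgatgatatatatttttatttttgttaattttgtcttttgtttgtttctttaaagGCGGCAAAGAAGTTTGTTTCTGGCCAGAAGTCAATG
ATP5F1B, chr12:56638411-56638511, minus strand: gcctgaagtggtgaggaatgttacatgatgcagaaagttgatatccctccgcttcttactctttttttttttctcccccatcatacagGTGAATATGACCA
NDUFA8, chr9:122144326-122144426, minus strand: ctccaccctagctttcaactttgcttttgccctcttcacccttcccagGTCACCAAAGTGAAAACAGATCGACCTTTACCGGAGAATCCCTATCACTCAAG
In each window the lower-case part runs into the AG that ends the intron, and the exon begins with the first capital. The windows of NDUFA4, UQCRC2 and ATP5F1B held 17, 36 and 13 coding bases, and that of NDUFA8, whose summit was in coding sequence, 53.

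Windows whose replicate 1 summit lay in coding sequence are shown for 3 further shared sites, with coding bases in capitals.
COX10 exon 6, chr17:14191977-14192077, plus strand: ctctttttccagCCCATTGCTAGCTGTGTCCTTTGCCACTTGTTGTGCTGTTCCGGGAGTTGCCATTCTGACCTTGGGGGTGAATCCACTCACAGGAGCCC
UQCRFS1 exon 2, chr19:29207806-29207906, minus strand: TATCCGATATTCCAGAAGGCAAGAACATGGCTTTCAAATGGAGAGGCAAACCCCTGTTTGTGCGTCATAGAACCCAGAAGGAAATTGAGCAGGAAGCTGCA
SDHA exon 13, chr5:251307-251407, plus strand: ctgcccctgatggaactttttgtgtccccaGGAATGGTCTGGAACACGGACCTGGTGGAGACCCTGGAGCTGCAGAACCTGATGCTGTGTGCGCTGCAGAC
The UQCRFS1 window is wholly coding, while those of COX10 and SDHA also hold the end of an intron. None of these 3 windows holds UGGAC, and the SDHA window holds GGAC. The replicate 2 summit of the SDHA pair lay 124 bp away in the intron, and the window around it does hold UGGAC.

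Sequence motifs were searched in these windows on the gene strand, overlaps allowed, namely UGGAC, the GGAC within it, and the m6A consensus DRACH. UGGAC occurred in 5 of 93 member windows in replicate 1 (5.38%, 2.32 to 12) and 5 of 82 in replicate 2 (6.10%, 2.63 to 13.5), beside 10.1% and 10.2% of windows over all protein-coding exons. GGAC occurred in 19.4% and 25.6%, beside 29.4% and 32.5%. DRACH, which is met by many sequences, occurred in 79.6% and 78.0%, beside 81.1% and 76.3%. In genes below 2000 nt, UGGAC occurred in 8.77% and 4.26% of member windows, beside 11.5% and 10.8%. GGAC occurred there in 24.6% and 19.1%, beside 33.1% and 34.8%. The windows are genomic sequence, so at summits in introns or outside the gene they need not be the bound RNA. The 10 windows with UGGAC belonged to 6 genes, and the same site was in the windows of both lists only for NDUFA6, an accessory subunit of complex I. Sites from 4 of these genes are given with the motif, written as DNA, in capitals.
NDUFA6, both replicates, chr22:42085882-42085906, minus strand: ggcatgaggcTGGACgacttgttaa
ATP5F1D, replicate 1, chr19:1242477-1242501, plus strand: gtccggcaggTGGACgtgcccacgc
COX10, replicate 2, chr17:14206992-14207016, plus strand: gcccctgtgcTGGACatcaccacat
SDHA, replicate 2, chr5:225938-225962, plus strand: gtgcatttggTGGACagagcctcaa
The NDUFA6 pair, at its last exon, had a fold of 5.90 in replicate 1 and 6.73 in replicate 2, so the gene with the recurring motif was not among the strongest. The windows of NDUFA4, NDUFA8 and UQCRC2 at their last exons held no GGAC.

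Many member peaks also lay on a neighboring gene, and the lists cannot assign such peaks to a strand. Of the member peaks, 24 in replicate 1 (25.8%) and 30 in replicate 2 (36.6%) also overlapped an exon of another gene, beside 11.1% and 13.5% over all protein-coding exons. In genes below 2000 nt the shares were 28.1% and 38.3% for members, beside 20.2% and 23.1%. The base composition at the summit differed between the lists. Windows of member peaks had a median GC content of 46.5% in replicate 1 and 59.4% in replicate 2, and those of all genes 50.5% and 57.4%. The first exon was touched by 18.3% of member peaks in replicate 1 and by 34.1% in replicate 2, beside 11.5% and 20.5%. In genes below 2000 nt the shares were 17.5% and 34.0% for members, beside 18.7% and 28.6%.

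Genes found in a single list had peaks of fewer reads. The 15 members with peaks in replicate 1 only had 18 peaks with a median pileup of 14.5 reads, a median GC of 53.5% and 2 peaks on the first exon. They were NDUFA5, NDUFA7, NDUFA9, NDUFA11, NDUFA12, NDUFB11, NDUFS5, NDUFS7, SDHC, CYC1, UQCRB, UQCR10, COX6C, ATP5MC1 and ATP5MK, with top folds from 5.24 (NDUFA11) to 12.1 (NDUFA12). The 14 members with peaks in replicate 2 only had 15 peaks with a median pileup of 13 reads, a median GC of 63.4% and 9 peaks on the first exon. They were NDUFA1, NDUFA2, NDUFA13, NDUFB1, NDUFB3, NDUFB7, NDUFV2, NDUFAF4, NDUFAF5, NDUFAF6, COX4I1, COX6B2, ATP5F1C and the readthrough gene ATP5MF-PTCD1, with top folds from 5.38 (COX6B2) to 7.73 (NDUFB1). A peak each of NDUFA1 and COX4I1 overlapped a replicate 1 peak that did not reach their exons. Members found in both lists had median pileups of 22 and 23 reads. The part of base composition and of read number in the differences between the lists was not tested.

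The labelled cell line was checked against markers. KRT8, KRT18, KRT19, EPCAM, CDH1 and ERBB2, markers of epithelial cells and of the amplified receptor of this line, had 1 to 10 exonic peaks in each replicate. PTPRC, CD3E, COL1A2 and PECAM1, markers of leukocytes, fibroblasts and endothelium, had none, and COL1A1 had 1 in replicate 2.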

How the data were processed

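LACE-seq of IGF2BP3 in OE-19 cells was analysed as 1 group of 2 replicates, which the study calls biological. The deposited peak lists give a summit, a fold enrichment, a −log10 p-value, a −log10 q-value and a score, which was not used. Fold enrichment was read as the ratio of pileup to local background, with 1 added to each. How the authors made them is described in different ways: the submitters' processing notes name fastp, HISAT2, MACS2 and hg38, whereas the methods of the study name Bowtie, removal of pre-rRNA reads and Piranha. The column layout and values fit MACS2. Versions are not given in the sources used here. Peaks were called per replicate, without a control library analysed here.

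Peaks were assigned to genes of GENCODE release 44 by an overlap of at least 1 bp with an exon, without strand (Python 3.11.15, pandas 2.3.3). One transcript per gene (the Ensembl canonical transcript) served for exon numbers and codons of pairs. The pileup was recovered from fold and p-value as the whole number of reads that reproduced −log10 p within 0.001, which succeeded for all 21142 and 20799 peaks; on simulated peaks 2000 of 2000 were recovered. Total reads per library were not used here, and intervals are Wilson intervals for counting error only, which treat peaks or genes as independent. Copies of the 31 bases at each summit were counted in hg38. No test between samples was possible with 1 group.

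The members and all gene lists were chosen with earlier results of these data known. Named genes are, in each complex and among assembly factors, the up to 4 members whose strongest shared pair ranks highest by the lower within-list percentile of fold; SDHA to SDHD and CYC1; the 3 members with most peaks; members whose peaks in both lists do not overlap; and members without a peak, of which not all are reported here by name. Alternatives were the assignment of peaks to genes, transcripts, overlapping genes, peak strength, repeated sequence, the window and each replicate alone.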

Additional observations from a re-analysis of the deposited data

How the results depend on the processing

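Of 95 alternative values for 11 results, 72 kept within the spread between replicates or within 1.5 times the main count and 23 moved. With at least 50% of the peak in exons, genes with a peak fell to 32 in replicate 1, 35 in replicate 2 and 21 in both, genes with a shared site to 18, mean peaks per list from 87.5 to 43.5, and peaks covering a start codon to 10, a stop codon to 7, with a coding summit to 11 and overlapping the other list to 24.5. The median fold was then 7.07 in place of 7.60. With the summit base in an exon, genes with a shared site numbered 21, peaks 56, start-codon peaks 14.5, overlapping peaks 32, and the median fold was 7.78. Without peaks on exons of another gene, genes with a peak in replicate 2 numbered 34, start-codon peaks 12, UGGAC windows 2.5, and the median fold was 7.78. The median fold was 7.68 with 1 transcript per gene and 7.66 with a −log10 q of at least 5. With summits within 50 bp, 31 peaks per list overlapped the other list, and a search of the whole peak found UGGAC in 23 peaks per list. For the whole-peak search no share over all peaks is given. Leaving out UQCRHL and the readthrough genes, chosen after seeing the data, moved no result. Without replicate 1 or without replicate 2, the values ranged from 82 to 93 for peaks, 21 to 26 for start codons, 14 to 19 for stop codons, 17 to 22 for coding summits, 48 to 52 for overlapping peaks and 7.57 to 7.64 for the median fold, and UGGAC windows stayed at 5. No paired analysis was possible because there is 1 group.

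The low pileups limit what can be said of genes without a peak, and total depth is unknown.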

Other observations

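Pseudogenes named after members are outside the rule, since they are not protein-coding, and several carried strong peaks. Of 199 such pseudogenes, 18 had a peak in replicate 1, 15 in replicate 2 and 13 a shared site. Those with a peak belonged to 14 parent genes. The share over all pseudogenes is not given here, so these counts cannot be called high or low. COX6A1P2 had a fold of 22.3 (78 reads) in replicate 1 and 21.6 (72 reads) in replicate 2, above every peak of the members, while its parent COX6A1 had no shared site. The 31 bases at both COX6A1P2 summits occurred once in the genome, a count that cannot tell its reads from those of spliced COX6A1 mRNA. ATP5MFP2 had 15.7 and 12.2, COX7CP1 14.9 and 10.8, ATP5MC2P4 13.9 and 9.72, and SDHDP6 10.8 and 13.4. In the same order, the genomic copies of their summit sequences were 2 and 2, 2 and 1, 1 and 1, and 3 and 2. The origin of reads at the repeated sequences is uncertain. Of the 13 pseudogenes with a shared site, 8 had a parent gene without one, and 3 parents with a pseudogene peak (SDHD, ATP5MG and NDUFAF2) had no exonic peak of their own. Of the 40 pseudogene peaks, 23 had a summit sequence that occurred once. These pseudogenes were described after their values were seen.

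The respiratory chain proteins encoded in mitochondrial DNA were also outside the rule. Of 13 such genes, the same 5 had a peak in each replicate, namely MT-CO1, MT-CO2, MT-ND5, MT-ND6 and MT-CYB. MT-ND6 was counted only through peaks that also lie on MT-CYB, and the lists carry no strand. Their peaks had pileups of 175 to 298 reads but folds of 1.62 to 2.41, against medians of 20 reads and 7.57 and 7.64 for the nuclear-encoded genes.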
